A study of Mus musculus with 12 samples.

Results

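Expression of 10 genes of lipoprotein assembly was followed in mouse liver: the apolipoprotein genes Apoa1, Apoa2, Apoa4, Apoa5, Apob, Apoc2, Apoc3 and Apoe, the microsomal triglyceride transfer protein gene Mttp, and the hepatic lipase gene Lipc. The genes were taken as a list of symbols, and every probe that the array design gives one of those symbols was kept, whatever its signal. They are 10 of the 28090 names on the array, and 16 of its 41174 probes. Apob had 5 probes, Apoa5 and Apoc3 had 2 each, and the other genes had 1. Apoa1 and Apoe were spotted 10 times on each array and the other member probes once, 34 spots in all. All 16 probes were well above background in both channels on all 12 arrays, and all were among the 21490 probes tested. The study set Cyp1b1 null against wild-type livers on each of the diets, and high against low fat in wild-type livers. Cyp1b1 encodes a cytochrome P450.

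The groups were Cyp1b1 null mice on the high-fat diet, Cyp1b1 null mice on the low-fat diet, wild-type mice on the high-fat diet and wild-type mice on the low-fat diet, with 3 arrays each. All mice were male and of the C57BL6/J series, and the null mice are labelled only as null, with no allele given. The high-fat diet held 60% fat and the low-fat diet 10%, from weaning at 3 weeks to death at 14 weeks. Each array carried 1 sample in the Cy3 channel and, in the Cy5 channel, a common reference pooled from low-fat livers of wild-type mice, so a log2 ratio is the sample over that reference. Each sample is described as 3 pooled samples. Whether every array of a group had its own pool of mice is not stated, so p-values here speak only of array-to-array spread, which may be technical.

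Lipoproteins carry triglyceride and cholesterol through the blood. The liver packs them into very low density lipoprotein around Apob, a very large protein that Mttp loads with lipid in the endoplasmic reticulum, while Apoa1 and Apoa2 form the frame of high density lipoprotein. Apoc2 activates lipoprotein lipase, Apoa5 favours its action and Apoc3 hinders it, Apoe is the ligand by which the liver takes remnants back, and Lipc trims particles in the liver's capillaries. Apoa4 is made mainly in the intestine and, in rodents, also in the liver.

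Precision is limited by having 3 arrays in a group. Per array, 18375 to 23439 probes were well above background in the sample channel and 17286 to 25998 in the reference channel. Slides were read in 3 scans, of 6, 4 and 2 arrays, and scan 3 held no null array. Cyp1b1 has 2 probes. A_51_P255456, well above background on 10 arrays, had log2 ratios of 0.65 to 1.68 on the null arrays and -1.11 to 0.15 on the wild-type arrays. A_52_P297822, well above background on only 2 arrays, had -0.01 to 0.28 on the null arrays and -0.07 to 0.06 on the wild-type arrays. The sources used here do not say whether either lies inside the deleted part, so they do not check the labels. The label names liver hepatocytes. All 8 hepatocyte markers on the array (Alb, Ttr and others) were above background on every array, and so were all 8 Kupffer cell markers, all 5 endothelial markers and all 5 bile duct markers, so markers of non-parenchymal cells were measured as well. Of 6 enterocyte markers, Sis, Lct and Cdx2 were above background on none of the arrays, Vil1 on 4, and Fabp2 and Alpi on all 12. Of 5 adipocyte markers, 4 were above background on null low-fat array 1, against 0 to 2 on each of the other arrays. The 1 measured adipocyte marker had a log2 ratio of 3.47 there, against -1.20 to 3.65 on the other arrays. Wild-type low-fat array 1 stood apart in other markers: the mean log2 ratio of the stellate cell markers was 0.62 there, against -1.41 to -0.53 on the other 11 arrays, and that of the Kupffer cell markers was 0.17, against -1.68 to -0.18. Results that rest on that array are given with and without it.

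The scanner's upper limit was reached by 7 of the 16 probes on at least 1 array. Of all tested probes, 0.856% were saturated anywhere. Apoe was saturated in at least 1 channel on 11 of the 12 arrays and Apoa1 on 10. Probe A_51_P259930 of Apoa5 was saturated on 9 arrays, A_51_P310629 of Apoc3 on 7, Apoa2 and Apoc2 on 5 each, and A_52_P574306 of Apoc3 on 2. Apoa4, Lipc, Mttp, all 5 Apob probes and A_52_P292404 of Apoa5 were saturated on none. Which channel was lost followed the scan. The sample channel was saturated mostly in scan 1 and the reference channel mostly in scan 2. A ratio with only the sample channel saturated is held down, and one with only the reference channel saturated is held up. In scan 2 both channels were saturated on 2 arrays for Apoa2, on 2 for Apoe and on 1 for A_51_P259930 of Apoa5. The direction of the error is not known there. No member probe was saturated in the sample channel on all 3 arrays of a group.

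**Figure D1:**
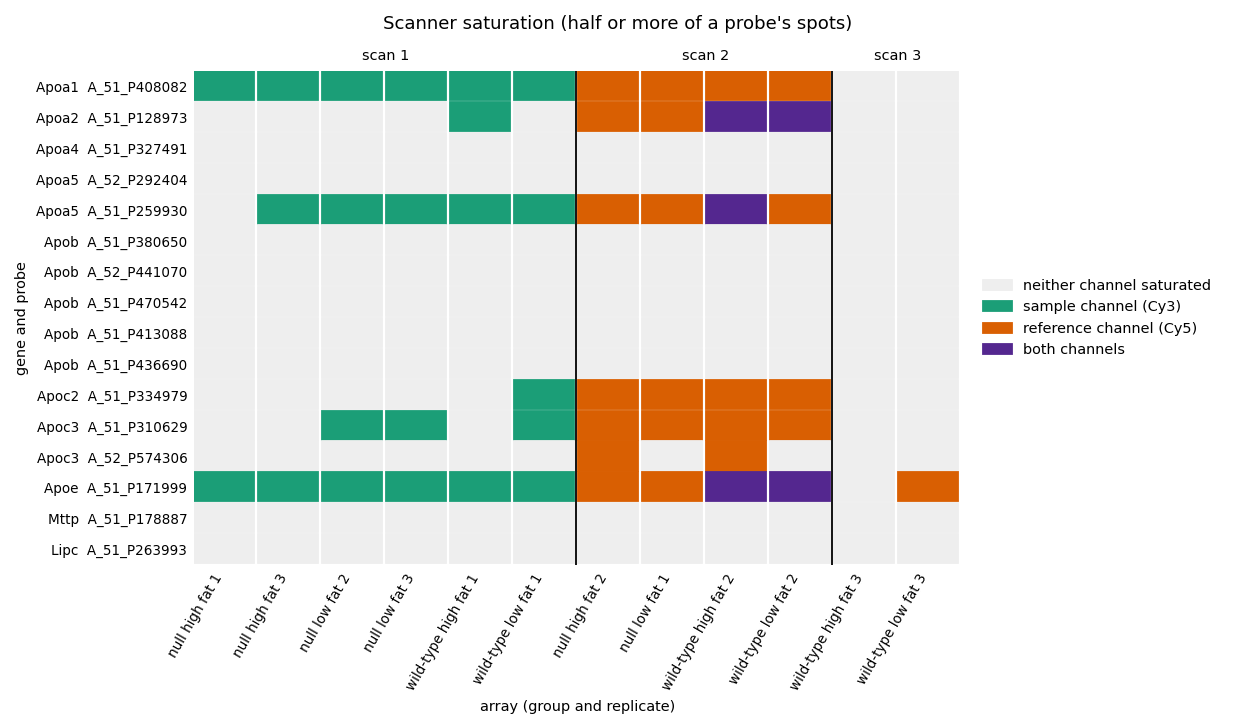
Scanner saturation of the 16 member probes (rows) on the 12 arrays (columns, grouped by scan). A coloured cell means that a share of at least 0.5 of the probe's spots was saturated in the sample channel, the reference channel or both. 9 rows are empty, and the sample channel dominates in scan 1 and the reference channel in scan 2.

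The widest difference among the members was that of Apoa4, 4.28-fold lower on the high-fat than on the low-fat diet in wild-type livers, and Lipc was 1.48-fold higher in the same comparison. Neither of these, and no other member, passed limma's test between groups, with Benjamini-Hochberg adjustment over all 21490 probes and a threshold of 0.05. For null against wild-type livers, 0 of 16 member probes passed at low fat, where 0.0186% of all tested probes did, and 0 of 16 at high fat, where 0.00465% did. For high against low fat, 0 of 16 passed in null livers and 0 of 16 in wild-type livers, with 0.00465% of all probes passing in each. The interaction of genotype and diet called 0 of 16, and 0% of all probes. Averaged over both diets, the genotype difference called 0 of 16 against 0.247% of all probes, and averaged over both genotypes, the diet difference called 0 of 16 against 0.0186%. At an unadjusted limma p under 0.05, the null against wild-type comparison held 1 member probe at low fat (7.08% of all probes) and 0 at high fat (2.23%). The diet comparison held 0 in null livers (1.65%) and 3 in wild-type livers (3.68%), the interaction 1 (0.856%), the genotype mean 0 (7.92%) and the diet mean 2 (4.27%). The arrays of both groups were apart for 2 member probes between null and wild-type livers at low fat (9.21% of all probes), 1 higher in null livers (5.03%) and 1 lower (4.18%). At high fat they were apart for 1 (7.06%), lower in null livers (3.88%), with 0 higher (3.19%). Between diets they were apart for 1 in null livers (4.63%), higher on high fat (2.14%), with 0 lower (2.49%), and for 2 in wild-type livers (6.88%), 1 higher (3.68%) and 1 lower (3.2%).

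Over the 16 probes the median log2 difference of null against wild-type livers was -0.03 on the low-fat and -0.01 on the high-fat diet, against 0.01 and -0.01 over all tested probes. For high against low fat it was 0.02 in null livers and -0.03 in wild-type livers, against 0.01 and 0.02. Between 7 and 8 of the 16 probes were higher in each of these comparisons. A 95% interval reached a median of 0.914 to either side of a member's difference, from 0.382 for the tightest probe to 2.31 for the widest.

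**Figure D2:**
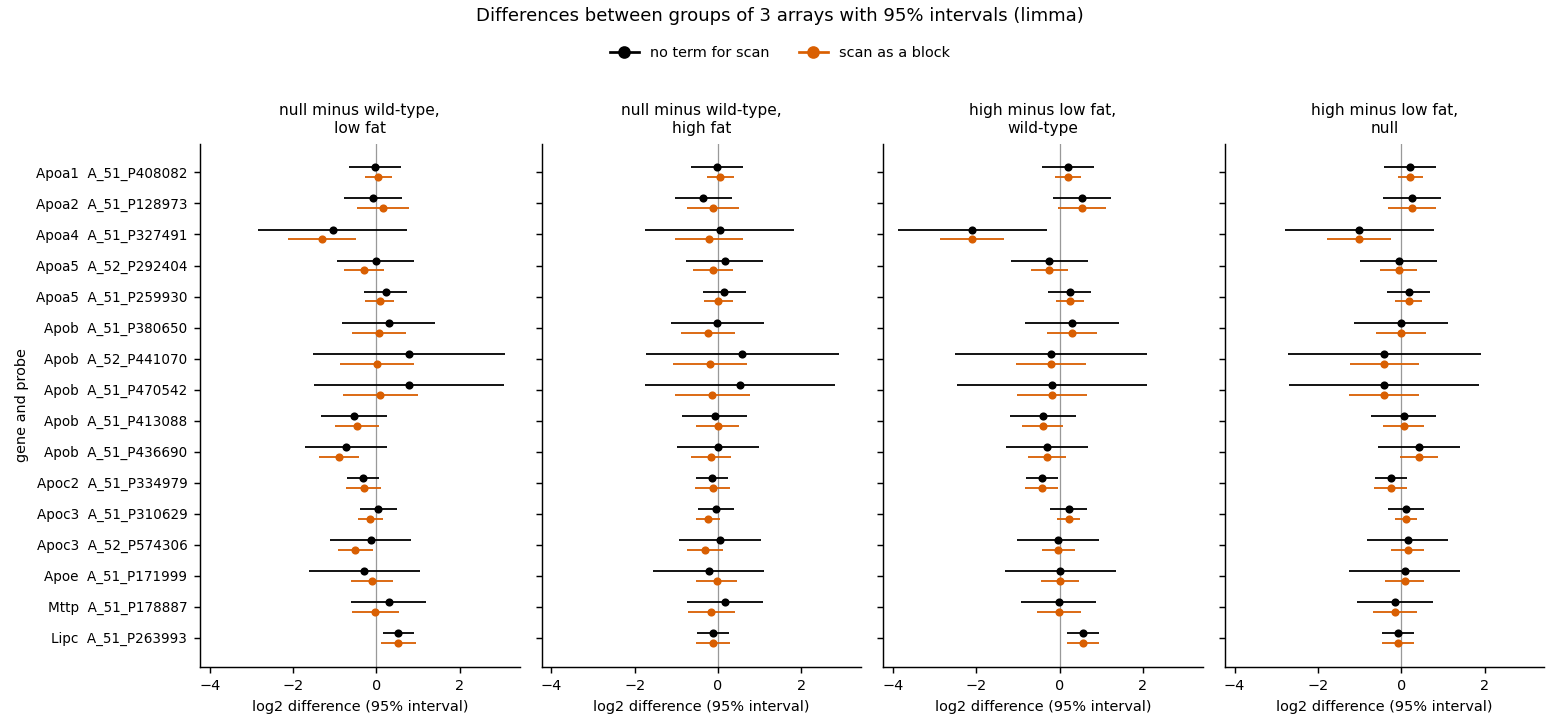
Log2 differences of the 16 member probes (rows) in the 4 comparisons of groups, each with its 95% interval from limma, without a term for scan (black) and with scan as a block (orange). Most intervals include 0. Without the scan term, those of Apoa4, Apoc2 and Lipc are apart from 0 for high minus low fat in wild-type livers, and the scan block narrows the intervals of Apob, Apoa4 and Apoe.

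Of the 16 member probes, 6 differed between scan 2 and scan 1 by more than 1 on the log2 scale within groups, against 3.47% of all tested probes. The shift was -2.52 and -2.53 for a pair of Apob probes, -1.98 for Apoa4, -1.17 and -1.07 for 2 further Apob probes, and 1.52 for Apoe. With scan as a block in the limma fit, 0 member probes passed in any of the 7 comparisons. All-probe calls with that block were 0.0605% and 0.00931% for null against wild-type livers at low and high fat, 0.00465% and 0% for the diet comparison in null and wild-type livers, 0% for the interaction, 0.479% for the genotype mean and 0.0186% for the diet mean. At an unadjusted p under 0.05 with that block, null against wild-type livers held 4 member probes on low fat (12.8% of all probes) and 0 on high fat (4.07%), and diet held 1 in null livers (4.13%) and 3 in wild-type livers (7.3%). The interaction held 3 (2.36%), the genotype mean 3 (12.6%) and the diet mean 2 (8.53%). Cell type markers differed from array to array too, and their part in the member values was not tested. In RNA from whole samples, fewer cells of a type and less RNA per cell cannot be told apart.

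**Figure D3:**
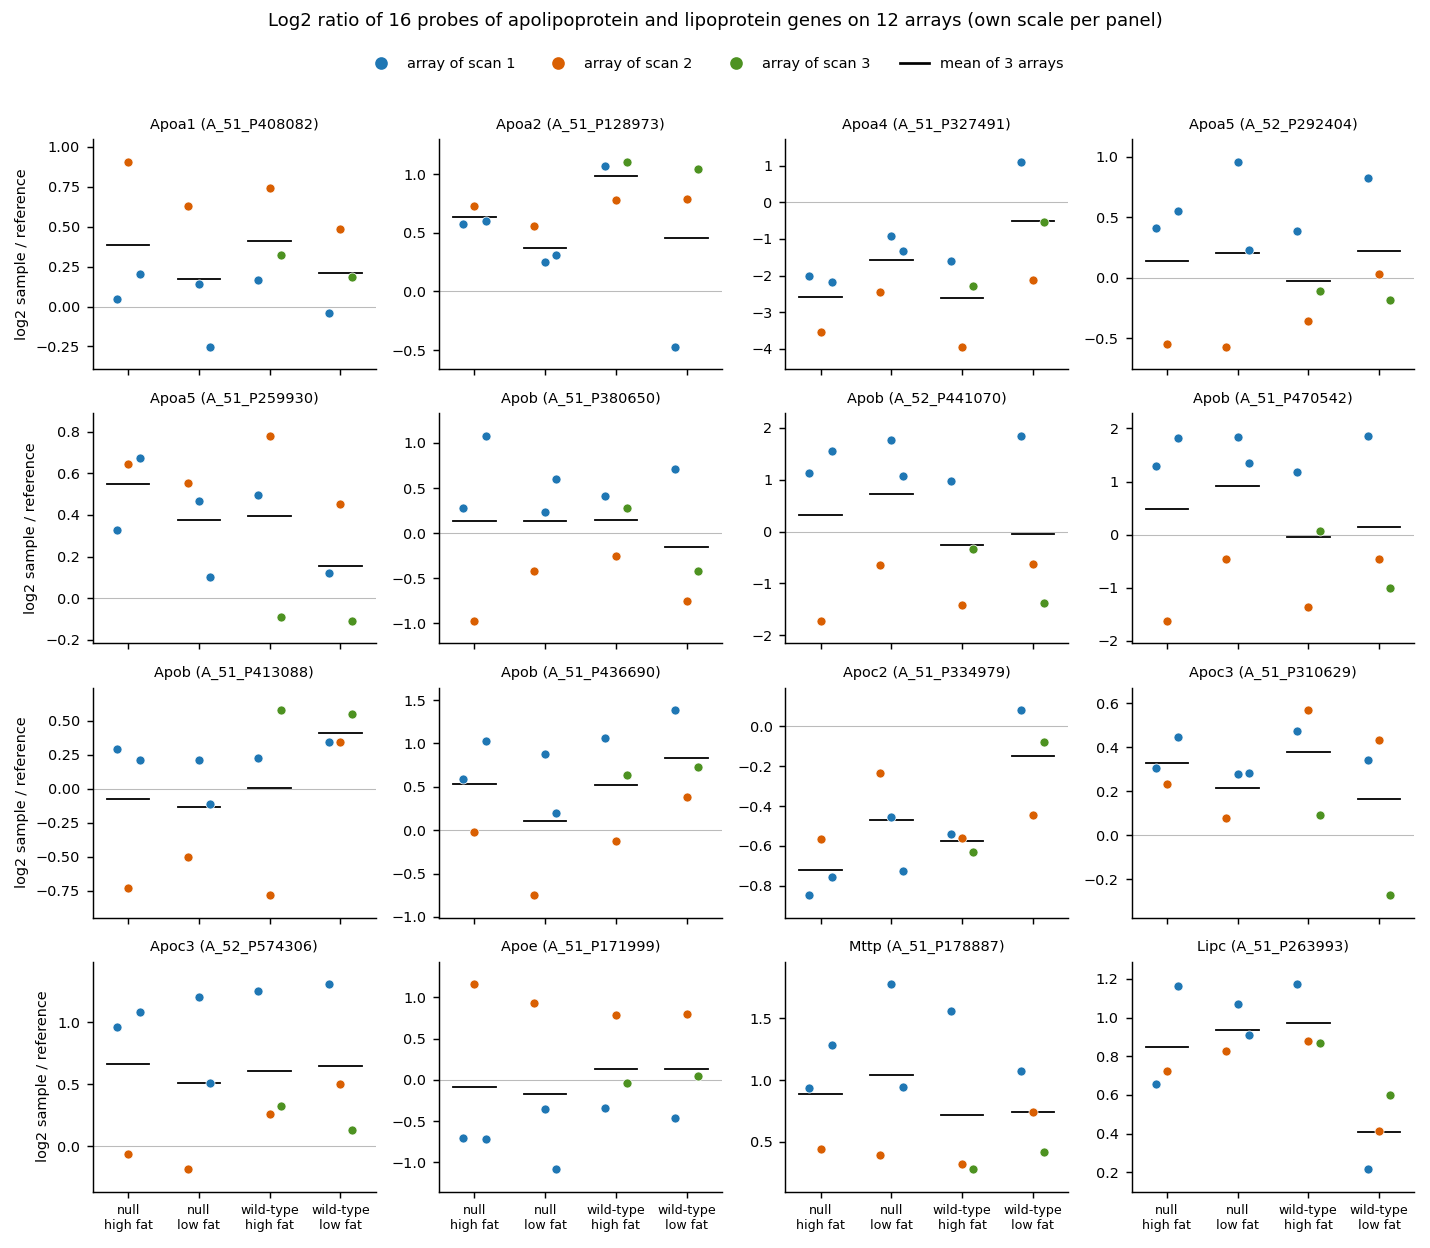
Log2 ratio of sample over reference for each of the 16 member probes on the 12 arrays, by group, with points coloured by scan and a bar at the mean of 3 arrays. Each panel has its own scale. In all 4 groups the scan 2 array lies below those of scan 1 for A_52_P441070 and A_51_P470542 of Apob and for Apoa4, and above them for Apoe and Apoa1.

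Apob, the scaffold of very low density lipoprotein, was read by 5 probes that share no run longer than 7 bases. They are printed because they answered differently on the same arrays, each 5′ to 3′ as deposited.
Apob A_52_P441070: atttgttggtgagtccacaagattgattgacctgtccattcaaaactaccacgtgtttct
Apob A_51_P470542: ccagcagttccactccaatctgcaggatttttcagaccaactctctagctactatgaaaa
Apob A_51_P380650: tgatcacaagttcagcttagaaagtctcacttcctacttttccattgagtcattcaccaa
Apob A_51_P413088: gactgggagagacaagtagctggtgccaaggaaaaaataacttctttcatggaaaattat
Apob A_51_P436690: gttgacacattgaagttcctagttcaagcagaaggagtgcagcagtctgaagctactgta

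The gene lies on mouse chromosome 12 (RefSeq, GRCm38.p6), and the place of each probe in the transcript is not given in the tables used here. Probe A_52_P441070 had log2 ratios of 1.14, -1.73 and 1.56 in null high-fat livers, -0.65, 1.76 and 1.07 in null low-fat livers, 0.98, -1.43 and -0.34 in wild-type high-fat livers, and 1.85, -0.63 and -1.37 in wild-type low-fat livers. Every group spans both signs, and the groups overlap. In scan 1 the ratios of that probe ran from 0.98 to 1.85 and in scan 2 from -1.73 to -0.63, whichever the genotype or diet. A_51_P470542 followed it, with 1.17 to 1.86 in scan 1 and -1.63 to -0.45 in scan 2. The other 3 probes moved less between scans, by -1.17, -1.07 and -0.65.

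For null against wild-type livers at low fat, the 5 Apob probes gave log2 differences from -0.73 to 0.78, with 3 higher and 2 lower. The bright pair gave the 2 largest, 0.78 (SE 1.05) and 0.77 (SE 1.04), and with scan as a block these were 0.01 (SE 0.40) and 0.09 (SE 0.40). The lowest value was that of A_51_P436690, whose log2 ratios were -0.75, 0.87 and 0.19 on the null arrays and 1.39, 0.39 and 0.73 on the wild-type arrays. Its groups overlap. The difference was -0.73 (SE 0.45), with limma's adjusted p = 0.8, and -0.91 (SE 0.22) with scan as a block, with adjusted p = 0.158. Left out 1 at a time, null low-fat array 1 brought it to -0.30, null low-fat array 2 to -1.11 and wild-type low-fat array 1 to -0.45. Within scan 1 it was -0.86, from 2 null arrays and 1 wild-type array on another slide, and within scan 2 it was -1.14, from 1 array each. With slide as a block its adjusted p in limma was 0.479. A_51_P413088 was the only Apob probe whose low-fat groups did not overlap. It had -0.50, 0.21 and -0.11 on the null arrays against 0.34, 0.34 and 0.55 on the wild-type arrays, a difference of -0.54 (SE 0.36) with adjusted p = 0.821 in limma. At high fat the 5 probes lay between -0.08 and 0.58 for null against wild-type livers. For high against low fat they lay between -0.41 and 0.42 in null livers and between -0.40 and 0.30 in wild-type livers, with signs that differ between probes in both.

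**Figure D4:**
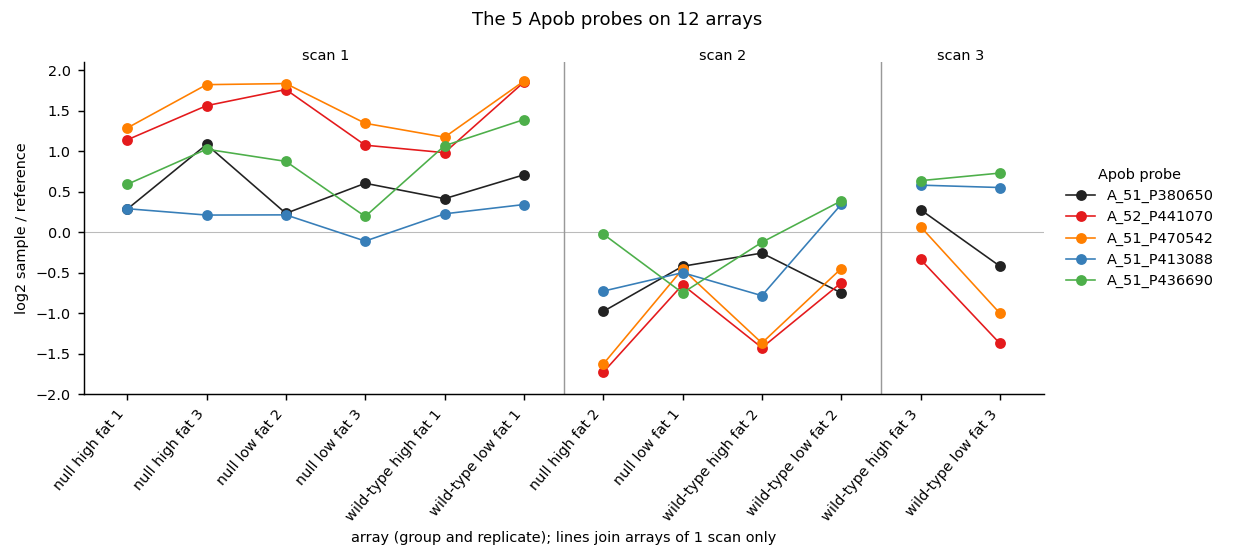
Log2 ratio of sample over reference for the 5 Apob probes on the 12 arrays, grouped by scan, with lines joining arrays of 1 scan only. A_52_P441070 and A_51_P470542 sit between 0.98 and 1.86 in scan 1 and between -1.73 and -0.45 in scan 2, while A_51_P413088 shifts least between those scans.

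Mttp (A_51_P178887, chromosome 3), which loads Apob with lipid, had log2 ratios of 0.93, 0.44 and 1.29 in null high-fat livers and 0.39, 1.78 and 0.95 in null low-fat livers. In wild-type high-fat livers they were 1.56, 0.32 and 0.27, and in wild-type low-fat livers 1.07, 0.74 and 0.42. The groups overlap in every comparison, and within each group the arrays of scan 1 are above that of scan 2. The largest of the 4 differences was 0.29 (SE 0.41) for null against wild-type livers at low fat (limma's adjusted p = 0.932), with a 95% interval from -0.61 to 1.20. With scan as a block that difference was -0.03 (SE 0.25).

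Apoa1 (A_51_P408082, chromosome 9), the main protein of high density lipoprotein and the activator of the plasma enzyme Lcat, had means of 0.39 ± 0.46 in null high-fat livers, 0.17 ± 0.44 in null low-fat livers, 0.41 ± 0.30 in wild-type high-fat livers and 0.21 ± 0.27 in wild-type low-fat livers (log2 ratio, SD, n = 3 each). Means on the high-fat diet were above those on the low-fat diet in both genotypes, by 0.21 (SE 0.28) in null livers and 0.20 (SE 0.28) in wild-type livers, which is less than the SD within each of the 4 groups and did not pass in limma (adjusted p = 1 in both). Its sample channel was saturated on all 6 arrays of scan 1 and its reference channel on all 4 arrays of scan 2. With saturated spots left out, no null high-fat array was left. The 10 spots of a single array had an SD between 0.0245 and 0.474 on the log2 scale.

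Apoa2 (A_51_P128973, chromosome 1), the second protein of high density lipoprotein, had log2 ratios of 0.58, 0.73 and 0.60 in null high-fat livers, 0.56, 0.25 and 0.31 in null low-fat livers, 1.07, 0.78 and 1.11 in wild-type high-fat livers, and -0.47, 0.79 and 1.04 in wild-type low-fat livers. The null high-fat arrays lie below all wild-type high-fat arrays and above all null low-fat arrays, and wild-type low-fat array 1 lies below every other array. Several of these ratios are at the scanner's limit. The sample channel was saturated on wild-type high-fat arrays 1 and 2 and on wild-type low-fat array 2, and the reference channel on all 4 arrays of scan 2. Null against wild-type livers at high fat gave -0.35 (SE 0.31, limma's adjusted p = 1), and with scan as a block -0.12 (SE 0.28). High against low fat gave 0.26 (SE 0.31) in null livers and 0.53 (SE 0.31) in wild-type livers, with adjusted p = 1 in both. Without wild-type low-fat array 1 the wild-type value was 0.07. Within the scans it was 1.54 in scan 1, -0.01 in scan 2 and 0.07 in scan 3, from 1 array of each diet. In scan 2 both channels of both arrays were saturated, so -0.01 measures no difference, and in scan 1 the high-fat ratio is held down.

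Apoa4 (A_51_P327491, chromosome 9) differed most of the 16 probes between diets, and its probe is printed 5′ to 3′ since the result rests on this single 60-base sequence.
Apoa4 A_51_P327491: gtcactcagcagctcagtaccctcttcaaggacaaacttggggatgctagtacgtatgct

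The log2 ratios of Apoa4 were -2.01, -3.54 and -2.19 in null high-fat livers, -2.45, -0.91 and -1.34 in null low-fat livers, -1.61, -3.95 and -2.29 in wild-type high-fat livers, and 1.11, -2.13 and -0.55 in wild-type low-fat livers. Arrays on the high-fat diet are mostly lower, and the groups still overlap in each comparison. The array of scan 2 is the lowest of its group in all 4 groups. Within each of the 3 scans the wild-type low-fat array had the highest ratio of all arrays read there. In wild-type livers Apoa4 was 4.28-fold lower on the high-fat than on the low-fat diet, a log2 difference of -2.10 (SE 0.81, 95% interval -3.89 to -0.31), which did not pass in limma (unadjusted p = 0.0254, adjusted p = 1). In null livers the diet difference was -1.01 (SE 0.81, adjusted p = 1), 2.02-fold lower on the high-fat diet, and -0.53 without null high-fat array 2. Over both genotypes it was -1.56 (SE 0.57, adjusted p = 0.954). The interaction, 1.09 (SE 1.15), had adjusted p = 1, so a difference between the genotypes in the response to diet was not shown.

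Within the scans the wild-type diet difference of Apoa4 was -2.72 in scan 1, -1.83 in scan 2 and -1.75 in scan 3, from 1 array of each diet. Of 21469 probes with values on all 6 wild-type arrays, 8 were lower by over 1 in every scan, 0.0373%, and Apoa4 was the only member among them. In null livers the within-scan differences were -0.97 in scan 1, from 2 arrays of each diet, and -1.09 in scan 2, from 1 of each. The residual SD of Apoa4 was 1.16, above that of 99.7% of tested probes, and 0.51 with scan as a block. With that block the wild-type diet difference was again -2.10 (SE 0.34), with limma's unadjusted p = 0.000125 and adjusted p = 0.26, and the mean over both genotypes was -1.56 (SE 0.24), with adjusted p = 0.105. The mean over both genotypes passed under 2 settings picked after seeing the data. It was -1.31 (adjusted p = 0.0239) with scan as a block and wild-type low-fat array 1 left out, and -1.49 (adjusted p = 0.0238) with scan as a block, no background correction and median centring.

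Wild-type low-fat array 1 had the highest Apoa4 ratio of all 12 arrays, and it is the array on which the stellate and Kupffer cell markers were high. The mean log2 ratio of the bile duct markers was -0.03 there, against -1.48 to -0.26 on the other arrays, and that of the endothelial markers 0.21, against -0.74 to 0.07. Its median Cy3 signal was 514, against 180 to 316. The part of these in the result was not tested. Without it the wild-type diet difference was -1.28 (SE 0.75, limma's adjusted p = 0.951), the mean over genotypes -1.15 (SE 0.51, adjusted p = 0.974), and null against wild-type livers at low fat -0.23 (SE 0.75), against -1.04 (SE 0.81, adjusted p = 0.853) with all arrays. The genotype difference at low fat was thus smaller without that array. Leaving it out also left no wild-type low-fat array in scan 1, where 2 null low-fat arrays were read. With scan as a block the difference was -1.30 (SE 0.36, limma's adjusted p = 0.221) with all arrays. With that block and without that array it was -0.62 (SE 0.28, adjusted p = 0.411). The wild-type diet difference in that setting was -1.60 (SE 0.25, limma's unadjusted p = 0.000112, adjusted p = 0.178), which did not pass. Within the scans the genotype difference at low fat was -2.24 in scan 1, from 2 null arrays and that wild-type array, and -0.32 in scan 2, from 1 array each. Those 2 null arrays were on a slide of their own, so the scan 1 value also compares slides. With slide as a block the genotype difference at low fat was -0.73 (SE 0.48, limma's adjusted p = 0.626). The interaction was 0.47 (SE 0.58) with slide as a block and 1.09 (SE 0.48) with scan as a block. At high fat null and wild-type livers differed by 0.04 (SE 0.81, adjusted p = 1). The 2 measured enterocyte markers, of 6, had a mean log2 ratio of -1.17 on wild-type low-fat array 1, against -0.48 to 0.63 on the other arrays. Of the 6, 3 were above background there, against 2 or 3 on each of the other arrays.

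In unscaled mean Cy3 signal the wild-type low-fat array was also first in each scan, narrowly so in scan 2. After scaling of single channels, null low-fat array 1 had 11.67 and wild-type low-fat array 2 had 11.66 on the log2 scale in scan 2. In scan 1 the unscaled Cy3 signal of Apoa4 was 2738 and 2888 in null high-fat livers, 5190 and 5990 in null low-fat livers, 4407 in the wild-type high-fat liver and 40068 in the wild-type low-fat liver. In scan 2 it was 1368, 2663, 1220 and 2837 in the same order of groups, and in scan 3 it was 2719 in the wild-type high-fat liver and 9452 in the wild-type low-fat liver. The Cy5 signal of the common reference ranged from 2852 to 5929 in scan 1, from 24172 to 40875 in scan 2 and from 10604 to 15220 in scan 3.

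**Figure D5:**
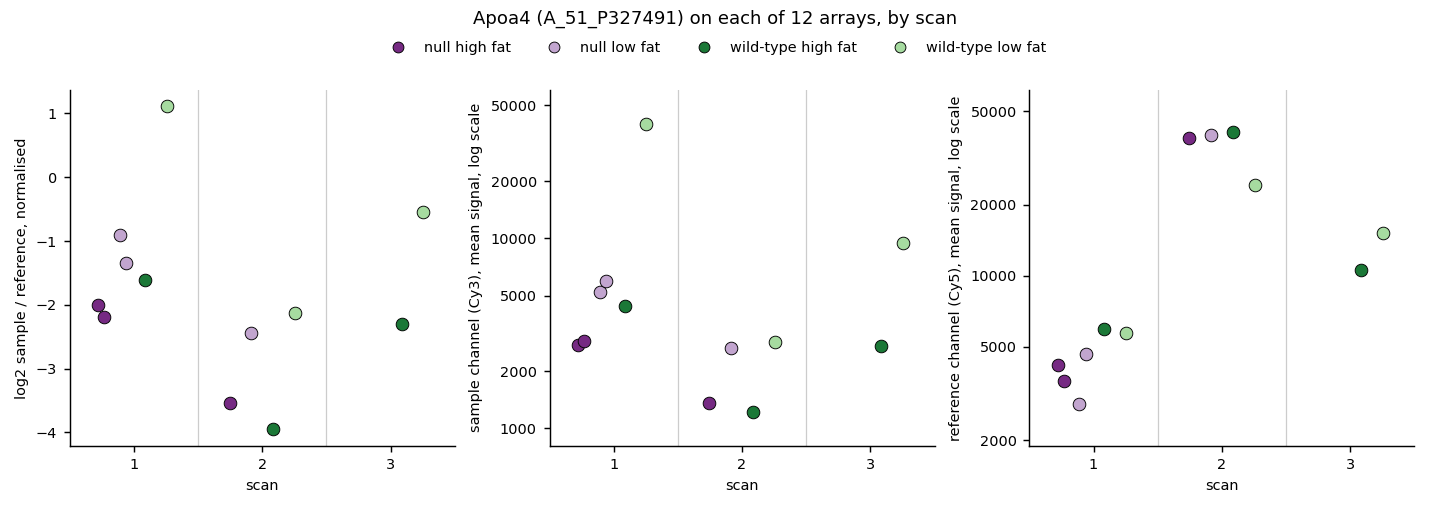
Apoa4 on each of the 12 arrays by scan: the normalised log2 ratio (left), the mean Cy3 signal of the sample (middle, log scale) and the mean Cy5 signal of the reference (right, log scale), coloured by group. Within each scan the wild-type low-fat array has the highest ratio and the highest Cy3 signal, up to 40068 in scan 1.

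Apoa5, which favours triglyceride clearance by lipoprotein lipase, was read by 2 probes on chromosome 9. A_52_P292404, which was never saturated, had means of 0.14 ± 0.60 in null high-fat livers, 0.21 ± 0.77 in null low-fat livers, -0.02 ± 0.38 in wild-type high-fat livers and 0.23 ± 0.53 in wild-type low-fat livers (log2 ratio, SD, n = 3 each). Its groups overlap throughout, and its differences between groups lay from -0.25 to 0.16. A_51_P259930, saturated on 9 arrays, had means of 0.55 ± 0.19, 0.37 ± 0.24, 0.40 ± 0.44 and 0.15 ± 0.28 in the same groups. For high against low fat in wild-type livers the probes gave opposite signs, -0.25 (SE 0.42) for the first and 0.24 (SE 0.24) for the second. The gap between them moved with the scan: A_51_P259930 minus A_52_P292404 was -0.71 to 0.12 in scan 1, 0.42 to 1.19 in scan 2 and 0.02 to 0.07 in scan 3.

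Apoc2 (A_51_P334979, chromosome 7), the activator of lipoprotein lipase, had log2 ratios of -0.85, -0.56 and -0.75 in null high-fat livers, -0.23, -0.46 and -0.73 in null low-fat livers, -0.54, -0.56 and -0.63 in wild-type high-fat livers, and 0.08, -0.45 and -0.08 in wild-type low-fat livers. All 3 wild-type high-fat arrays lie below all 3 wild-type low-fat arrays, while the null groups overlap. That separation rests on -0.45 on low-fat array 2 against -0.54 on high-fat array 1. Only the former is saturated, in the reference channel, which holds its ratio up, so the separation is uncertain. High against low fat in wild-type livers gave -0.43 (SE 0.17, 95% interval -0.81 to -0.05, unadjusted p = 0.0311), which did not pass in limma (adjusted p = 1). The value was -0.63, -0.11 and -0.55 within scans 1, 2 and 3, from 1 array of each diet. In null livers it was -0.25 (SE 0.17), and over both genotypes -0.34 (SE 0.12, adjusted p = 0.921). The reference channel of Apoc2 was saturated on all 4 arrays of scan 2, so the scan 2 value of -0.11 compares ratios that are both held up. The sample channel was saturated on wild-type low-fat array 1, so its ratio in the scan 1 value is held down. Without that array the wild-type diet difference was -0.31 (limma's adjusted p = 0.951).

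Apoc3, the inhibitor of lipoprotein lipase, has 2 probes on chromosome 9 that read nearly the same stretch. They are printed because they share 50 bases, in capitals, shifted by 10, and still gave unequal ratios.
Apoc3 A_51_P310629: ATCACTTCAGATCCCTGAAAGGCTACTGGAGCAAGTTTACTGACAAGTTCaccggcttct
Apoc3 A_52_P574306: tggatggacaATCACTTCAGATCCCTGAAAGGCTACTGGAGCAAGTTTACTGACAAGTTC

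A_51_P310629 had log2 ratios of 0.31, 0.23 and 0.44 in null high-fat livers, 0.08, 0.28 and 0.28 in null low-fat livers, 0.47, 0.57 and 0.09 in wild-type high-fat livers, and 0.34, 0.43 and -0.27 in wild-type low-fat livers. A_52_P574306 had 0.96, -0.06 and 1.08, then -0.19, 1.20 and 0.51, then 1.25, 0.26 and 0.32, then 1.31, 0.50 and 0.13, in the same order of arrays. The groups overlap for both probes, and the second spans more. The gap of the second over the first was 0.22 to 0.97 in scan 1, -0.31 to 0.07 in scan 2 and 0.23 to 0.41 in scan 3. In scan 1 the sample channel of the first probe was saturated on 3 of 6 arrays and that of the second on none. No difference of either probe passed in limma. The largest for A_52_P574306 was 0.15 (SE 0.44) for high against low fat in null livers, with adjusted p = 1. With scan as a block, null against wild-type livers at low fat gave -0.51 (SE 0.19, adjusted p = 0.324) for A_52_P574306 and -0.14 (SE 0.13, adjusted p = 0.652) for A_51_P310629.

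Apoe (A_51_P171999, chromosome 7), the ligand of the remnant receptors, had log2 ratios of -0.71, 1.16 and -0.72 in null high-fat livers, 0.93, -0.36 and -1.08 in null low-fat livers, -0.34, 0.78 and -0.03 in wild-type high-fat livers, and -0.47, 0.80 and 0.05 in wild-type low-fat livers. The array of scan 2 is the highest of its group in all 4 groups, and the groups overlap. On 11 of these 12 arrays at least 1 channel was at the scanner's limit, so these ratios carry little measurement of the transcript. On wild-type low-fat array 2 all 10 spots were saturated in both channels, the ratio before normalisation was 0.004, and the 0.80 above is what loess made of it. The differences between groups ran from -0.30 (SE 0.61) for null against wild-type livers at low fat to 0.08 (SE 0.61) for high against low fat in null livers, with limma's adjusted p of 0.957 and 1. With saturated spots left out, 1 array of the 12 still had a value, so no comparison could be made.

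Lipc (A_51_P263993, chromosome 9), the lipase of the liver's capillaries, had the smallest shift between scans 1 and 2 among the probes never saturated. Its probe is printed because the wild-type low-fat arrays lay apart from all others on it.
Lipc A_51_P263993: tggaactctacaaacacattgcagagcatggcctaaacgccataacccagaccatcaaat

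Its log2 ratios were 0.66, 0.72 and 1.16 in null high-fat livers, 0.83, 1.07 and 0.91 in null low-fat livers, 1.17, 0.88 and 0.87 in wild-type high-fat livers, and 0.22, 0.41 and 0.60 in wild-type low-fat livers. The wild-type low-fat arrays lie below all other 9 arrays, which overlap among themselves. This pattern was seen in the data, and the share of all tested probes that show such a pattern was not counted. High against low fat in wild-type livers gave 0.56 (SE 0.17, 95% interval 0.18 to 0.95), 1.48-fold, and it did not pass in limma (unadjusted p = 0.00779, adjusted p = 1). It was 0.96, 0.47 and 0.26 within scans 1, 2 and 3, from 1 array of each diet. Null against wild-type livers at low fat gave 0.53 (SE 0.17, interval 0.14 to 0.91), 1.44-fold, with unadjusted p = 0.0114 and adjusted p = 0.54, the smallest adjusted p of any member in that comparison. It was 0.78 in scan 1, from 2 null arrays and 1 wild-type array on another slide, and 0.41 in scan 2, from 1 each. With slide as a block it was 0.49 (SE 0.28, limma's adjusted p = 0.579). In null livers high against low fat gave -0.09 (SE 0.17), and at high fat null against wild-type gave -0.12 (SE 0.17), both with adjusted p = 1. The interaction was -0.65 (SE 0.25, unadjusted p = 0.0226, adjusted p = 1). The wild-type diet difference, the low-fat genotype difference and the interaction share the wild-type low-fat arrays. Without wild-type low-fat array 1 the wild-type diet difference was 0.47 (SE 0.19, adjusted p = 0.951) and the low-fat genotype difference 0.43 (SE 0.19, adjusted p = 0.464).

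Apoa1, Apoa4, Apoa5 and Apoc3 form a known gene cluster on chromosome 9, and their diet differences in wild-type livers were of unlike size. Set side by side, the log2 difference of high against low fat was -2.10 (SE 0.81) for Apoa4, 0.20 (SE 0.28) for Apoa1, -0.25 (SE 0.42) and 0.24 (SE 0.24) for the Apoa5 probes, and 0.21 (SE 0.20) and -0.04 (SE 0.44) for the Apoc3 probes. Apoe and Apoc2 also neighbour each other, on chromosome 7, with 0.01 (SE 0.61) and -0.43 (SE 0.17). Differences between these genes were not tested. In wild-type livers 7 of the 16 probes kept 1 direction of the diet difference within all 3 scans (27% of all tested probes did). Of these, 4 were higher on the high-fat diet (15.7% of all tested probes) and 3 were lower (11.3%). The higher ones read Apoa1, Apoc3 (A_51_P310629), Apoa5 (A_51_P259930) and Lipc, the first 3 of them saturated on 7 to 10 arrays. The lower ones read Apoa4, Apoc2 and Apob (A_51_P436690).

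Further genes of the pathway were followed through 5 lists of 60 genes, of which 58 were measured (Apod and Lipg were not), each by its brightest measured probe. In limma 0 of the 58 passed in each of the 7 comparisons. At an unadjusted p under 0.05, null against wild-type livers held 7 at low fat (7.08% of all probes) and 5 at high fat (2.23%), diet held 3 in null (1.65%) and 4 in wild-type livers (3.68%), the interaction 2 (0.856%), the genotype mean 9 (7.92%) and the diet mean 7 (4.27%). In null against wild-type livers at low fat, 9 of the 10 genes of plasma remodelling had lower values, with a median log2 difference of -0.56. Of all tested probes 48.7% were lower there, with a median of 0.01. None of the list's members passed. Without wild-type low-fat array 1, a setting picked after seeing the data, 8 of 10 were lower and the median was -0.32. Among other apolipoproteins 9 of 10 genes were higher in null livers at low fat, with a median of 0.21 and none passing, and without that array 8 of 10 were higher, with a median of 0.46. Assembly and secretion had 9 of 14 higher, receptors and transporters 8 of 12 higher and transcription regulators 8 of 12 lower, with medians of 0.10, 0.20 and -0.18. Without that array these medians were 0.07, 0.35 and -0.14. At high fat, 6 of 10 plasma remodelling genes were lower in null livers, with a median of -0.18, where 51.4% of all tested probes were lower, and 8 of 10 other apolipoproteins were higher, with a median of 0.21.

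Apobec1, which edits the Apob transcript, had (A_51_P160754) 0.20, -0.10 and 0.64 in null high-fat livers and 0.59, 0.29 and 0.72 in null low-fat livers, against -0.63, -0.49 and -0.31 in wild-type high-fat livers and 0.19, -1.04 and -0.26 in wild-type low-fat livers. The null arrays lie above the wild-type arrays of the same diet, as did those of 5.03% of all tested probes at low fat and 3.19% at high fat. The share that does so on both diets was not counted. Averaged over both diets the difference was 0.81 (SE 0.20), which did not pass in limma (adjusted p = 0.219). It had the smallest p of its list, of which 9 of 14 genes were higher and 5 lower in that mean. Apom, a carrier of sphingosine phosphate on high density lipoprotein, differed by 0.53 (SE 0.14, adjusted p = 0.235) in the same sense.

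In the diet comparison of wild-type livers the 4 list genes with an unadjusted p under 0.05 did not pass either. Pon1, an esterase on high density lipoprotein, differed by 1.16 (SE 0.37, limma's adjusted p = 1) for high against low fat. Sar1b, a GTPase of the vesicle coat that exports lipoproteins, differed by 0.75 (SE 0.23), and Nr0b2, a repressor of bile acid synthesis, by 0.82 (SE 0.29), both with adjusted p = 1. Lpl, lipoprotein lipase itself, differed by -1.22 (SE 0.54, adjusted p = 1), with a ratio of 0.05 on wild-type low-fat array 1, against -2.03 and -2.10 on arrays 2 and 3 of that group and -3.20, -2.14 and -2.40 in wild-type high-fat livers.

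By Pearson's r over the 12 arrays, among 14880 genes taken by their brightest measured probe, Apoa4 was most like Tgfbr2 (r = 0.960), Tmem41a (0.957) and an unnamed probe, A_51_P327496 (0.936). With the mean of each scan removed these were 0.932, 0.938 and 0.956. Lipc was most like Slc10a1, the bile acid uptake transporter (0.962, and 0.960 with scan means removed), Pm20d1 (0.900) and Fgf1 (0.876). Apoc2 was most like Zfp606 (0.940), Ctsl (0.877) and Gas6 (0.857). Apoe was most like Cox6a1 (0.971), Gnmt (0.962) and its chromosome neighbour Apoc1 (0.960), and with scan means removed these were 0.585, 0.617 and 0.454. The arrays share scans and a reference, so these values describe likeness on these 12 arrays only.

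The authors' deposited table gave log2 differences for the comparisons the study names, with no error or p. For Apoa4 it held 0.08 for null against wild-type livers at high fat, -0.92 at low fat and -2.04 for high against low fat in wild-type livers. For Lipc the authors' deposited table held -0.09, 0.67 and 0.68 in the same order. For Mttp it held 0.22, 0.54 and 0.31, where the loess values above were 0.17, 0.29 and -0.03, so the Mttp diet difference has the other sign in the authors' deposited table. Some differences of Apoa1, Apoa5, Apob and Apoc3 probes also had the other sign there. The diet difference of A_52_P441070 of Apob in wild-type livers was 0.05 there, against -0.21 with loess. The authors' deposited table was made from the scanner software's processed signals.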

How the data were processed

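The deposited intensity values are the mean brightness and local background of each spot in both channels, written by Agilent's Feature Extraction, per the file headers, with spot analysis version 9.1.3.1 and an edited protocol that uses local background. Per the file headers, the deposited log10 ratios set the processed Cy5 signal over that of Cy3. The authors' deposited table holds log2 ratios. They equal differences between group means of those log10 ratios, after a change of sign and base, on 43379 of 43379 spots within 1e-06. The submitters' processing notes name limma without a version. Per the labels, no dyes were swapped.

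Values were computed again from the intensities with limma 3.58.1 in R 4.3.3: normexp background correction (offset 50), loess within arrays, no normalisation between arrays, and log2 of Cy3 over Cy5. Non-uniform spots (120 over all arrays) were left out and repeated spots averaged. Tests took probes that passed the scanner software's well-above-background flag in Cy3 on every array of 1 group or more. All 12 arrays entered 1 limma model with a mean for each group, with 8 residual degrees of freedom, and adjusted p over 21490 probes by Benjamini-Hochberg. Every member was named in every comparison. For the other lists the 2 genes with the smallest p per comparison could be named, and for likeness the 3 genes with the highest r. Values of 1 list gene are not reported here. Members and lists were chosen with earlier results of these data known. Wild-type high-fat and low-fat arrays of the same replicate number shared a scan and slide, and their deviations from group means had r of 0.347, 0.336 and 0.475. A pairing of samples there cannot be told apart from the shared scan and slide. In the other comparisons equal numbers did not always share a scan and slide, and r ran from -0.572 to 0.557. The highest, 0.557, was for null and wild-type high-fat arrays 2, which did share both. Steps were tested on simulated data. Alternatives covered background correction, normalisation, filters, saturated spots, scan, slide, replicate number and each array left out. Probe sequences are those in the deposited scanner files, and chromosomes are from RefSeq (GRCm38.p6).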

Additional observations from a re-analysis of the deposited data

How the results depend on the processing

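Over 27 settings planned at the start, 0 of 2870 member values passed the threshold and 363 changed direction. Over 5 settings added after the data had been seen, 2 of 538 passed, both for Apoa4 in the diet difference over both genotypes. In that comparison the count of member probes past the threshold was 1, against 0, with wild-type low-fat array 1 left out and scan as a block, where 39 probes of all passed, and 1 with scan as a block, no background correction and median centring, where 125 passed. Leaving out 1 array at a time kept the count at 0 in each of the 7 comparisons (lowest 0, highest 0), and the Apoa4 diet difference in wild-type livers between -2.90 and -1.28. Over all 27 planned settings that difference ran more widely, from -8.64 to -1.28. With the replicate number as a block (replicate block) the count was 0 in each comparison and that difference was -2.10 (limma's adjusted p = 1), so no member's call changed. Only between the wild-type diet groups did equal numbers always share a scan and slide, so that block does not test this pairing alone. With slide as a block the count was also 0 in each comparison. The Apoa4 diet difference in wild-type livers was then -2.10 (SE 0.31, limma's unadjusted p = 9.99e-05, adjusted p = 0.344). Over all settings the number of probes called on the whole array moved more: 0 to 128 for the genotype comparison on low fat and 0 to 61 on high fat, against 4 and 1 as reported, 0 to 5 for diet in null livers and 0 to 4 in wild-type livers, against 1 each, 0 to 402 for the genotype mean, against 53, and 0 to 125 for the diet mean, against 4. The causes were not tested. Saturation limits Apoe, Apoa1, Apoa2, Apoc2 and Apoc3, whose every probe was saturated on some array, so that for Apoe no comparison survives without saturated spots.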
